A study of Mus musculus with 27 samples.

Results

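IL-9 and 9 receptor chains were followed through the aortas of mice given angiotensin II (Ang II). The genes are Il9, its receptor chain Il9r, the common gamma chain Il2rg, and the partner chains Il2ra, Il2rb, Il4ra, Il7r, Il21r, Il15ra and Il13ra1. They were taken by their symbols, and all 10 were found among the 42375 named rows of each bulk count table and the 32285 rows of each single-cell feature list. A further 28 genes of the same pathway (cytokines, other receptors, JAK and STAT genes, and known targets) are described beside them.

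The common gamma chain is shared by the receptors for IL-2, IL-4, IL-7, IL-9, IL-15 and IL-21, and each cytokine pairs it with a chain of its own. IL-9 binds its own chain, IL-9R, which signals together with the gamma chain through JAK1, JAK3 and STAT factors that include STAT3 and STAT5. The IL-4 receptor alpha chain can pair with the gamma chain or, in cells such as fibroblasts and macrophages, with IL-13R alpha 1 to form the receptor for IL-4 and IL-13. IL-9 is made by T helper subsets and by group 2 innate lymphoid cells (ILC2), and is known for its effects on mast cells, lymphocytes and epithelium.

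Genotypes were compared, labelled Cre and TKO, in a study of fibrosis around blood vessels. All 27 samples came from mice with 28 days of Ang II and a C57BL/6 strain background. The labels give neither the Cre driver, the deleted allele nor the animals' age, and only the series title names KLF10 in CD4+ T cells. In bulk, the aorta labelled non-stripped was sequenced in 3 Cre and 3 TKO libraries, and the aorta labelled stripped in 4 Cre and 2 TKO libraries, a difference the labels do not define. Fibroblasts isolated from digested aorta gave 3 of each. A further 5 libraries were from non-stripped TKO aorta of mice given Ang II and either control IgG (3) or an IL-9 antibody labelled IL9mAb (2). Single-cell libraries of digested non-stripped aorta numbered 2 Cre and 2 TKO. Nothing in the labels says that replicates came from separate animals, so p-values measure the spread between these samples, which may be technical.

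Bulk libraries held 17179257 to 38633457 counts, and the single-cell matrices held 114998 barcodes, of which 49481 were kept as cells. Klf10 was counted in 22 bulk libraries and stood at 0 in non-stripped TKO replicate 3, against 822 and 696 counts in the other TKO libraries and 943 to 1400 in Cre. In the other tables the TKO libraries held 381 to 2439 counts of it. In T-like cells it was at 21.2 and 32.5 CPM (counts scaled to the library total) in Cre and 8.27 and 10.7 CPM in TKO, from 30, 10, 6 and 2 UMIs, a log2 difference of -1.47 ± 0.63 (SE) that edgeR did not call (adjusted p = 0.865). The summed adipocyte markers ran from 8273 to 11284 CPM in non-stripped aorta, 849 to 3120 CPM in stripped aorta and 19.3 to 24.5 CPM in the fibroblasts. The fibroblast markers reached 28759 to 47397 CPM in stripped aorta and 3215 to 7536 CPM in the fibroblast preparations. Stripped TKO replicate 2 stood apart with 123 CPM of T cell markers, against 7.21 to 14.1 CPM in the other stripped libraries. In the antibody group, IL9mAb replicate 1 had 137 CPM of B cell and 64.4 CPM of T cell markers, against 6.62 to 24.1 CPM and 4.68 to 9.49 CPM in the other 4 libraries of that table. Cells were kept at median depths of 2626 and 1616 UMIs in Cre and 1580 and 1392 UMIs in TKO, and any pair of libraries shared 19 to 71 kept barcodes.

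In the GENCODE vM21 annotation of GRCm38, all 10 are protein-coding genes, and some lie side by side. Il2ra (chr2:11642807-11693193) and Il15ra (chr2:11705290-11734317) are neighbours on the plus strand, as are Il4ra (chr7:125552120-125579474) and Il21r (chr7:125603429-125633570). Il9 lies at chr13:56479277-56482246 and Il9r at chr11:32187541-32200279, both on the minus strand. Il7r (chr15:9505788-9530176) and Il2rb (chr15:78479256-78495271) share a chromosome and the minus strand. Il13ra1 (chrX:36112110-36171259, plus strand) and Il2rg (chrX:101264378-101268255, minus strand) are X-linked. Exons of Il2rg overlap Gm20489 on the same strand and exons of Il4ra overlap Gm44876 on the opposite strand, so reads there cannot be assigned with certainty.

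The promoters of Il9r, Il2rg and Il13ra1 are shown because their levels across cell classes differ. Il9r had its highest mean in B-like cells, although not separably from several smaller classes. Il2rg was highest in T cell and innate lymphoid classes and Il13ra1 in myeloid classes. Each is the 250 bases before the RefSeq gene start on GRCm38.p6, read 5′ to 3′ on the gene's strand, at chr11:32200280-32200529 (minus), chrX:101268256-101268505 (minus) and chrX:36111858-36112107 (plus). Capitals mark matches, on either strand, to TTCNNNGAA (STAT type), GAGGAA (PU.1 type), TGTGGT (RUNX type) or CACCC (KLF type).
Il9r: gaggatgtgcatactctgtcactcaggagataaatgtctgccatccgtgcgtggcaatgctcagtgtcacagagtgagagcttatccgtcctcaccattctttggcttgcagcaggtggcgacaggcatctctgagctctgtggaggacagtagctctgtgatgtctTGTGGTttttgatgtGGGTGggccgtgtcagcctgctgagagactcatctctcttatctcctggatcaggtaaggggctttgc
Il2rg: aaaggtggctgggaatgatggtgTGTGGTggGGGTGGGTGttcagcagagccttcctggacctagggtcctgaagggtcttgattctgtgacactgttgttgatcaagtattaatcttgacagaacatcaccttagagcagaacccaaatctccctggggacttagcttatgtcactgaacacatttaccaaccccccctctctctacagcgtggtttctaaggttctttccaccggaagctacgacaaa
Il13ra1: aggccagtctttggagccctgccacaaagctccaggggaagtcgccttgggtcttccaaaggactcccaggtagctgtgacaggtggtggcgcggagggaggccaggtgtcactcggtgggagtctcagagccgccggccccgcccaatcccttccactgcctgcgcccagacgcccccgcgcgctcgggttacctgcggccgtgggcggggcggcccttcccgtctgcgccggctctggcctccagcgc

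The Il9r window held 1 RUNX-type and 1 KLF-type match, and that of Il2rg held 1 RUNX-type and 2 overlapping KLF-type matches. The Il13ra1 window, which is 70.8% G and C against 49.2% for Il2rg, held none of the 4. Of all 32851 promoter windows of this length, 14.0% held the RUNX-type letters, 52.0% the KLF-type, 23.3% the PU.1-type and 7.02% the STAT-type, so these matches are a description and not evidence of binding.

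Il9 transcripts were nearly absent from the deposited counts. No UMI of Il9 was recorded in any of the 114998 barcodes, which allows up to 0.0174 CPM over the 4 libraries (3 counts, counting error only). In bulk, a single count of Il9 was found, in TKO fibroblast replicate 1, and the other 22 libraries held none. A count of 0 in one of these libraries allows 0.0800 to 0.188 CPM. No comparison of Il9 between groups was possible at this depth, in the antibody-treated aortas included.

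The cells carrying each receptor chain were read from 28 named classes, formed by clustering without the 10 genes and the 28 pathway genes. Levels are CPM of the UMIs of a class, as the mean ± SD over the 4 libraries (both genotypes together). Another 9525 cells stood in clusters with markers of several lineages and were left unnamed. These took 7.56% of the kept cells in Cre replicate 1 and 29.1% in Cre replicate 2. No doublet caller was run.

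**Figure D1:**
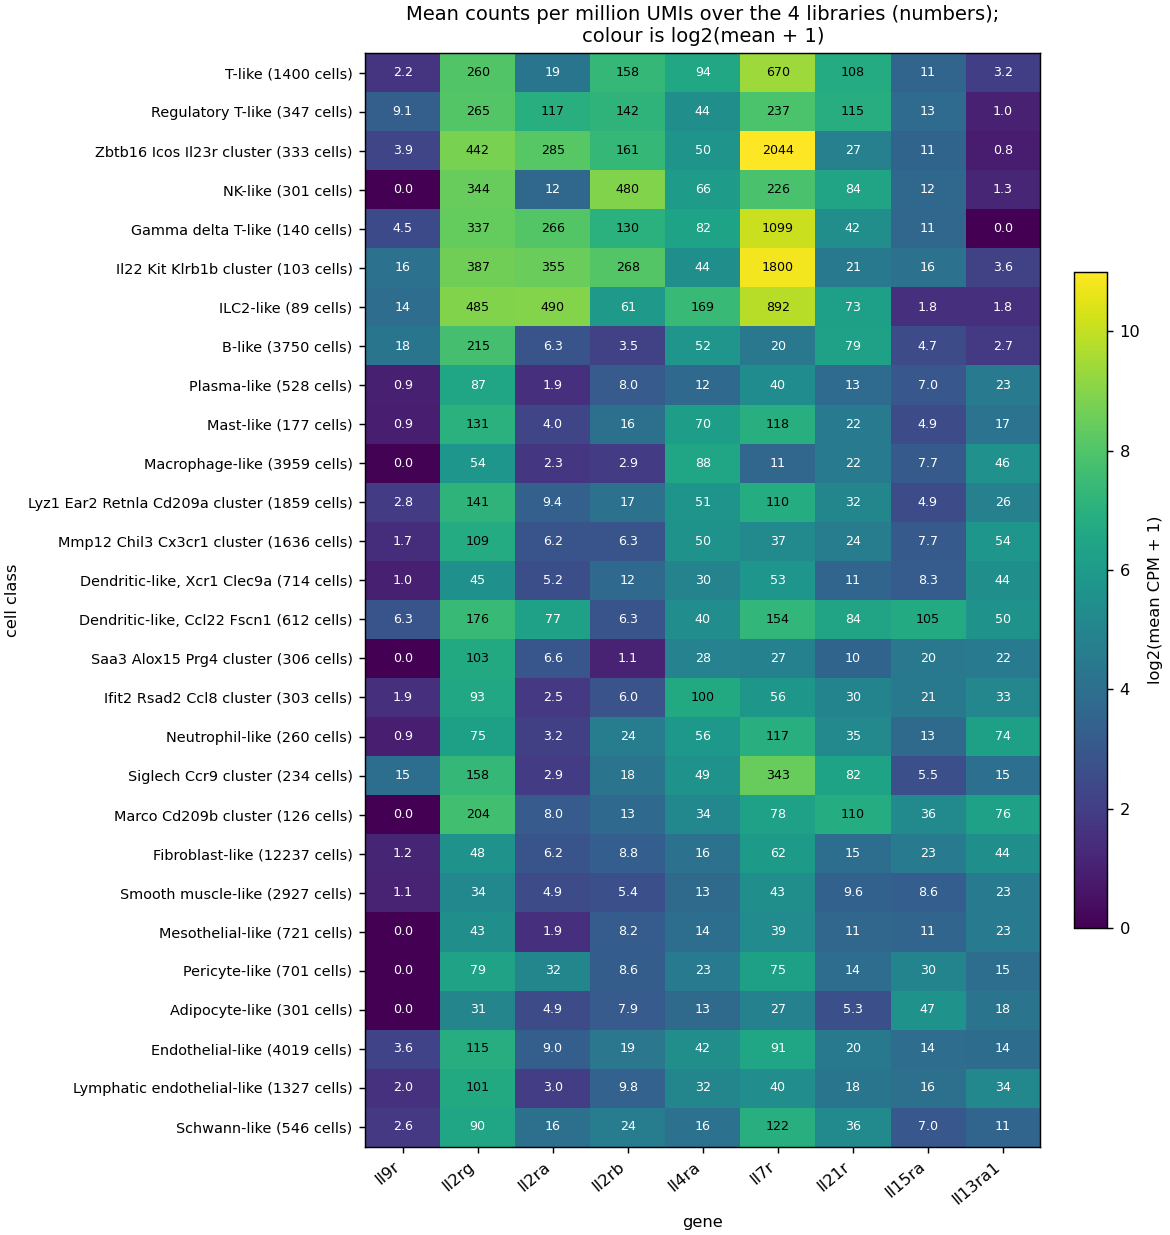
Level of each receptor chain (columns) in 28 cell classes (rows, with cell numbers), as mean CPM over 4 libraries, coloured on a log2 scale. Il2rg and Il2rb are brightest in the T cell, NK cell and innate lymphoid rows at the top, whereas Il13ra1 is at most 3.56 CPM there.

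Il9r, the IL-9-binding chain, had its highest mean in B-like cells at 18.3 ± 10.9 CPM. These cells made up 7.58% of the kept cells and held 115 of the 332 Il9r UMIs (34.6%). By library, B-like cells stood at 15.1 and 12.2 CPM in Cre and 34.5 and 11.4 CPM in TKO, so TKO replicate 1 was the high library and the genotypes overlapped. Without cells holding 2 or more marker genes of another lineage the mean was 64.2 CPM, set by 2 UMIs in the 7 cells left of 944 in TKO replicate 1 (225 CPM), while the other libraries stood at 5.41 to 13.4 CPM. An Il9r UMI was present in 2.69% of B-like cells (101 of 3750, median 1453 UMIs), against 0.0253% of macrophage-like cells at a median of 2075 UMIs and 0.196% of fibroblast-like cells at 1634 UMIs. With every cell thinned to 1000 UMIs, the shares were 1.95% of B-like, 0 of macrophage-like and 0.0817% of fibroblast-like cells. Plasma-like cells, the antibody-secreting stage of the B lineage, stood at 0.944 ± 1.89 CPM.

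The next Il9r levels rested on few UMIs. A cluster led by Siglech and Ccr9 held 14.7 CPM on average and 0 to 31.4 CPM by library (8 UMIs in 234 cells), and a cluster led by Il22, Kit and Klrb1b held 16.2 ± 19.3 CPM (2 UMIs in 103 cells). ILC2-like cells, marked by Gata3 at 855 CPM, stood at 57.0 CPM in Cre replicate 1 and at 0 in the other 3 libraries, where there were only 9, 12 and 4 such cells. All 8 of those UMIs came from the 64 cells of Cre replicate 1. These classes and the B-like cells could not be ranked, since their SDs overlap. The class with the highest mean became the Siglech Ccr9 cluster without cells holding T or B marker UMIs of another lineage, the Il22 Kit Klrb1b cluster without either Cre library and ILC2-like cells without TKO replicate 1, and was B-like otherwise. T-like cells, at 2.22 ± 1.48 CPM, stood below every B-like library. Mast-like cells, a textbook target of IL-9, held 1 Il9r UMI in 177 cells, an exact 95% Poisson interval of 0.0694 to 15.3 CPM, against 15.2 to 22.1 CPM for the 115 UMIs of B-like cells.

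Il2rg, the shared gamma chain, was detected in every named class. ILC2-like cells had 485 ± 213 CPM, the cluster led by Zbtb16, Icos and Il23r had 442 ± 170.3 CPM, and the Il22 Kit Klrb1b cluster had 387 ± 62.1 CPM. NK-like (344 ± 150.1), gamma delta T-like (337 ± 83.1), regulatory T-like (265 ± 14.6), T-like (259.7 ± 26.3) and B-like cells (215 ± 13.9 CPM) followed. Neighbours in this order differ by less than their SDs, other than the step from T-like to B-like cells. Among stromal classes Il2rg ran from 30.8 ± 16.7 CPM in adipocyte-like to 79.2 ± 41.7 CPM in pericyte-like cells. As scaled for the genotype tests, Cre replicate 1 was the lowest library in several classes outside the stroma. It had 66.4 against 107 to 156 CPM in endothelial-like, 29.6 against 50.1 to 72.4 in macrophage-like and 32.8 against 70.0 to 172 CPM in Schwann-like cells. In B-like, T-like and lymphatic endothelial-like cells it was not the lowest. The source of the Il2rg UMIs in these classes was not tested.

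The T cell gene Cd3e and the B cell gene Cd79a were also counted in stromal classes, where neither is known to be expressed. Fibroblast-like cells held Cd3e at 8.59 CPM in Cre replicate 1 and 46.5 to 64.4 CPM in the other 3 libraries, and Cd79a at 19.0 and 84.3 to 194 CPM. Il2rg in the same cells was lowest in the same library (10.2 against 46.3 to 70.4 CPM). So were Il7r, Il21r, Il2rb (3.30 against 8.76 to 12.3), Il2ra (3.12 against 4.23 to 9.10) and Il9r (0.0867 against 1.33 to 1.81 CPM). The source of these UMIs was not tested, so the levels of these 6 chains in stromal classes do not by themselves show expression there. Not every stromal class had this order. Il2ra in pericyte-like cells was at 20.7 and 16.7 CPM in Cre and 48.2 and 42.2 CPM in TKO, as scaled for the genotype tests. Il4ra in fibroblast-like cells was also lowest in Cre replicate 1, at 12.4 against 16.4 to 19.0 CPM as scaled for the genotype tests. The source of its UMIs in these cells was not tested either.

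Il7r, the IL-7 receptor chain of naive and memory lymphocytes and innate lymphoid cells, reached 2044 ± 292 CPM in the Zbtb16 Icos Il23r cluster and 1799.7 ± 286 CPM in the Il22 Kit Klrb1b cluster. Gamma delta T-like cells had 1099 ± 111 CPM, ILC2-like cells 892 ± 373 CPM and T-like cells 670.2 ± 101 CPM. The first pair of classes overlapped and both stood above the third. B-like cells were at 3.09 to 30.9 CPM and macrophage-like cells at 11.4 ± 7.09 CPM, the lowest of all classes.

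Il2ra, the high-affinity alpha chain for IL-2, was highest in ILC2-like cells (489.6 ± 329 CPM), followed by the Il22 Kit Klrb1b cluster (355 ± 109.9), the Zbtb16 Icos Il23r cluster (285 ± 34.1) and gamma delta T-like cells (266 ± 98.2 CPM). Regulatory T-like cells, for which Il2ra is a textbook marker, had 117 ± 68.4 CPM, and T-like cells had 18.6 ± 11.2 CPM. Dendritic-like cells led by Ccl22 and Fscn1 also carried it at 77.3 ± 66.2 CPM. Outside the lymphoid and dendritic classes the highest level was 32.1 ± 16.0 CPM in pericyte-like cells.

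Il2rb, the signalling beta chain for IL-2 and IL-15, was highest in NK-like cells at 480.3 ± 247 CPM. The Il22 Kit Klrb1b cluster followed at 268 ± 93.8 CPM, then the Zbtb16 Icos Il23r cluster at 161 ± 47.0, T-like cells at 158 ± 36.6 and regulatory T-like cells at 142 ± 28.6 CPM. The 7 T cell, NK cell and innate lymphoid classes held 45.5% of all Il2rb UMIs and no other named class passed 23.7 CPM.

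Il15ra, which presents IL-15 to cells carrying the beta and gamma chains, had a different distribution. The Ccl22 Fscn1 dendritic-like cells were highest at 105 ± 40.6 CPM, followed by adipocyte-like cells at 47.4 ± 20.3 CPM, the Marco Cd209b cluster at 36.2 ± 38.8 CPM (9 UMIs) and pericyte-like cells at 30.5 ± 8.85 CPM. Fibroblast-like cells had a lower level, 23.1 ± 5.66 CPM, but held 36.4% of all Il15ra UMIs. B-like cells (4.68 ± 2.63 CPM) and ILC2-like cells (1 UMI) were lowest.

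Il4ra, the chain shared by the IL-4 and IL-13 receptors, was spread across blood-derived classes. ILC2-like cells had 169 ± 63.7 CPM and a cluster led by Ifit2, Rsad2 and Ccl8 had 100.1 ± 47.3 CPM. T-like cells had 93.5 ± 38.7 CPM and macrophage-like cells 87.6 ± 35.7 CPM, and the ranges of mean ± SD of all of these overlapped. The ILC2-like value rests on 18 UMIs, most of them in Cre replicate 1. Macrophage-like cells held 24.4% of all Il4ra UMIs, with 128 CPM in Cre replicate 1 and 44.1 to 102 CPM in the other libraries. Fibroblast-like cells stood at 16.4 ± 3.03 CPM, lowest in Cre replicate 1, and the source of these UMIs was not tested. In bulk, isolated fibroblasts held Il4ra at 112 to 220.3 CPM in Cre and 134 to 272 CPM in TKO. Those preparations also held macrophage markers.

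Il13ra1, the partner of Il4ra in the receptor for IL-13, was nearly absent from T cell, NK cell and innate lymphoid classes and low in B-like cells (2.66 CPM on average, from 16 UMIs), whereas plasma-like cells had 23.1 ± 8.42 CPM. It was highest in a cluster led by Marco and Cd209b (76.5 ± 51.4 CPM) and in neutrophil-like cells (74.5 ± 27.8 CPM), followed by the Mmp12 Chil3 Cx3cr1 cluster (54.0 ± 6.32), dendritic-like cells led by Ccl22 and Fscn1 (49.5 ± 16.7), macrophage-like cells (45.6 ± 8.85) and fibroblast-like cells (43.8 ± 2.64 CPM). Fibroblast-like cells held 32.9% of its UMIs. The 7 T cell, NK cell and innate lymphoid classes together held 12 of 3445 UMIs, with at most 3.56 CPM in any of them. Il21r, the IL-21-binding chain, ran from 115 ± 30.4 CPM in regulatory T-like, 110.1 ± 44.1 in Marco Cd209b and 108 ± 21.0 in T-like cells, which do not differ beyond their SDs, to 78.6 ± 9.92 CPM in B-like and 5.35 ± 3.91 CPM in adipocyte-like cells.

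Over the 28 classes, the chains fell into like and unlike patterns, measured by Pearson's r of log2(CPM + 1). These correlations share libraries and depth and are given as a description. Il2rb and Il7r were most alike (r = 0.85), Il2ra was nearest to Il7r (r = 0.81) and Il2rg to Il7r (r = 0.78). Il13ra1 was negative with Il2rb (r = -0.74), Il2rg (r = -0.71) and Il2ra (r = -0.70). Among the 9427 or 9428 other genes compared for each, those nearest to Il7r included Cxcr6 (r = 0.91) and Tcf7 (r = 0.89), and Il2rb was nearest to Fam189b (r = 0.92), Trbc1 (r = 0.91) and Sh2d2a (r = 0.91). Il13ra1 was nearest to Wdfy3 (r = 0.85), Rab7b (r = 0.84) and Cst3 (r = 0.84). Cep57 (r = 0.79) and Sms (r = 0.75) were among the genes nearest to Il9r. The nearest to Il2rg were Vps37b (r = 0.89), H2-Q7 (r = 0.86) and Thrap3 (r = 0.86), those nearest to Il2ra were Eprs (r = 0.87), Uhrf2 (r = 0.85) and D16Ertd472e (r = 0.84), and those nearest to Il4ra included Capza1 (r = 0.81) and Arhgap9 (r = 0.81). Il21r was nearest to H2-Q7 (r = 0.78), Ptprc (r = 0.77) and Trim11 (r = 0.77), and Il15ra to Stard7 (r = 0.86), Txndc17 (r = 0.71) and Mlf2 (r = 0.70).

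Cells with UMIs of both chains of a receptor were counted in the same classes. Of the 101 B-like cells with an Il9r UMI, 42 also held Il2rg (41.6%), against 1047 of all 3750 B-like cells (27.9%). In ILC2-like cells 5 of the 8 Il9r-positive cells held Il2rg. Il4ra and Il13ra1 were found together in 124 macrophage-like cells, 15.9% of the 779 with Il4ra, against 12.5% with Il13ra1 among all macrophage-like cells. Depth differs between cells, so these shares describe presence and no link between the chains.

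In bulk aorta the chains ranked differently in each tissue when CPM was divided by exon length. Fewer cells of a type and less RNA per cell cannot be told apart in such libraries. In non-stripped Cre aorta Il15ra was highest at 11.8 ± 0.762 CPM per kb (SD, n = 3), followed by Il4ra at 3.34 ± 0.146 and Il2rg at 2.85 ± 0.469. In stripped Cre aorta Il13ra1 was highest at 14.9 ± 0.482 CPM per kb (n = 4), followed by Il4ra at 6.92 ± 0.462 and Il15ra at 4.76 ± 0.767. In Cre fibroblasts Il4ra stood first at 26.5 ± 9.25 CPM per kb (n = 3), with Il13ra1 at 6.74 ± 1.47 and Il2rg at 2.48 ± 0.647. Il9r was last but for Il9 in each of these 3 groups, at 0.0367 to 0.0880 CPM per kb. The tables were scaled separately, so the levels are set side by side without a test.

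**Figure D2:**
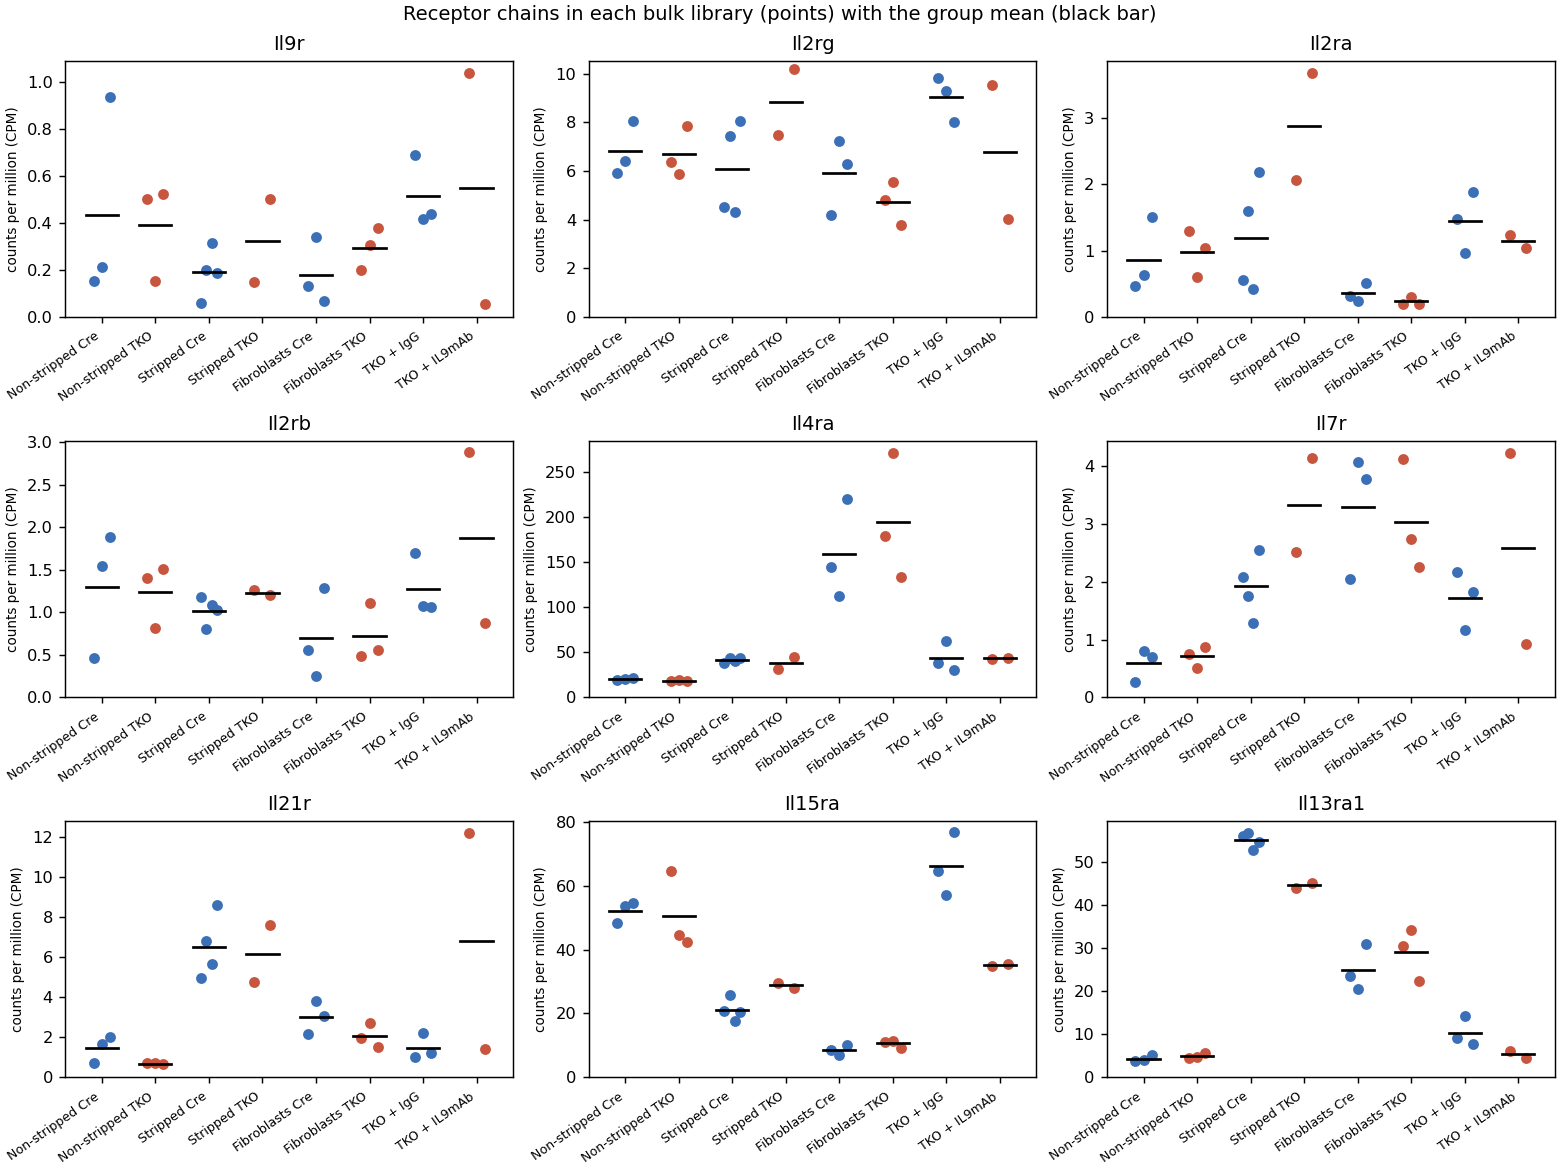
CPM of the 9 receptor chains in every bulk library (points) by tissue and group, with the group mean as a black bar. Il13ra1 is highest in stripped aorta (44.1 to 56.9 CPM), Il15ra in non-stripped aorta (42.4 to 64.6 CPM without injected antibody, 57.3 to 76.8 CPM with control IgG), and Il4ra in fibroblasts (112 to 272 CPM).

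In non-stripped aorta no receptor chain was called different between TKO and Cre. The 9 tested genes gave 0 calls at an adjusted p under 0.05 in edgeR's quasi-likelihood test, where 0.119% of 15160 genes were called, 0 with DESeq2, which called 4.77% of all genes, and 1 at an unadjusted p under 0.05, as had 17.9% of all genes. Il21r had 0.736, 1.65 and 2.02 CPM in Cre and 0.702, 0.711 and 0.639 CPM in TKO. All TKO libraries were below all Cre libraries, from 11 to 43 counts each, with a log2 change of -1.07 ± 0.40 (SE, edgeR adjusted p = 0.219). The B cell markers summed to 7.71 to 19.6 CPM in Cre and 7.98 to 10.1 CPM in TKO, with 7 of 7 tested below 0 on the log2 scale (median -0.56), and 5 of 5 T cell markers were below 0 (median -0.26). Regulatory T-like cells had the highest mean of Il21r, and their markers were split, with 2 of 4 tested below 0 (median 0.04). Of the myeloid lists, 7 of 9 macrophage markers (median 0.08) and 6 of 6 monocyte markers (median 0.33) were above 0. None of these markers was called by edgeR, and their part in the Il21r values was not tested. Il4ra, at 19.3, 19.8 and 21.0 CPM in Cre and 18.2, 19.1 and 18.1 CPM in TKO, also did not overlap, with a change of -0.12 ± 0.10 (edgeR adjusted p = 0.528). These are 2 of the 9 genes, or 22.2%, where 25.5% of all tested genes had groups that did not overlap.

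The other chains overlapped between the genotypes in this tissue. Il2rg was at 6.81 ± 1.12 CPM in Cre and 6.70 ± 1.01 CPM in TKO, and Il15ra at 52.3 ± 3.37 and 50.6 ± 12.2 CPM. Il9r had 4, 4 and 20 counts in Cre and 10, 3 and 9 in TKO, or 0.435 ± 0.437 and 0.392 ± 0.208 CPM. Il13ra1 (4.32 and 4.92 CPM), Il2rb (1.29 and 1.24), Il2ra (0.868 and 0.986) and Il7r (0.271 to 0.797 and 0.508 to 0.871 CPM) likewise differed by less than their spread. Without TKO replicate 3, the library with no Klf10 counts, none was called either.

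In stripped aorta 8 chains were tested, Il9r falling under the filter with 2 to 15 counts per library. None was called by edgeR, where 0.0240% of 16686 genes were, none by DESeq2, which called 3.19%, and 2 had an unadjusted p under 0.05, as had 13.8% of all genes. Il13ra1 had 56.1, 56.9, 52.8 and 54.8 CPM in Cre and 44.1 and 45.3 CPM in TKO. The groups did not overlap and the log2 change was -0.30 ± 0.08 (edgeR adjusted p = 0.220). The macrophage markers summed to 1573 to 2201 CPM in Cre and 1816 and 1428 CPM in TKO, with 8 of 9 tested below 0 (median -0.31). Neutrophil-like cells had a higher mean of Il13ra1 than macrophage-like cells, and neutrophil markers went the other way, 5 of 5 tested above 0 (median 1.05). Of the fibroblast markers 5 of 10 were above 0 (median -0.02). None of these markers was called by edgeR, and their part in the Il13ra1 values was not tested. Il15ra ran from 17.6 to 25.8 CPM in Cre and stood at 29.7 and 28.1 CPM in TKO, a change of 0.45 ± 0.15 (edgeR adjusted p = 0.275). Adipocyte-like single cells carried Il15ra, and the adipocyte markers were also higher in stripped TKO (1938 and 3120 CPM) than in Cre (849 to 1682 CPM). The Ccl22 Fscn1 dendritic-like cells had the highest mean of Il15ra, and dendritic markers were split, with 4 of 7 tested above 0 (median 0.17). Pericyte-like cells carried it too, and 5 of 6 pericyte markers were below 0 (median -0.12). The part of these markers in the Il15ra values was not tested.

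With Il2rb (1.02 ± 0.161 CPM in Cre, 1.23 ± 0.0398 in TKO), 3 of 8 chains had groups that did not overlap, or 37.5%, against 23.6% of all genes. Il2ra and Il7r were highest in stripped TKO replicate 2, the library rich in T cell markers, at 3.68 and 4.15 CPM. TKO replicate 1 held 2.07 and 2.52 CPM, inside the Cre ranges of 0.420 to 2.18 and 1.29 to 2.56 CPM. Neither was called (Il2ra 1.26 ± 0.65, edgeR adjusted p = 0.436; Il7r 0.79 ± 0.35, edgeR adjusted p = 0.375). Il21r (6.50 and 6.17 CPM), Il4ra (41.5 and 38.1) and Il2rg (6.09 and 8.84 CPM) overlapped.

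In isolated fibroblasts none of the 9 tested chains was called by edgeR, where 0.0638% of 15672 genes were, and none reached an unadjusted p of 0.05, where 12.1% of all genes did. None had groups that did not overlap, against 17.3% of all genes. DESeq2 called 2.73% of genes and none of these, giving no adjusted p for Il9r and Il2ra. Il4ra had 145, 112 and 220.3 CPM in Cre and 179, 272 and 134 CPM in TKO, so the spread within each genotype was larger than the difference. Il13ra1 was at 23.5, 20.5 and 31.1 CPM in Cre and 30.5, 34.2 and 22.4 CPM in TKO. Il9r had 2 to 13 counts per library. The fibroblast preparations also held macrophage markers at 160 to 637 CPM and T cell markers at 5.76 to 9.81 CPM, and their part in the Il2rg values of 5.91 ± 1.54 and 4.72 ± 0.908 CPM was not tested.

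**Figure D3:**
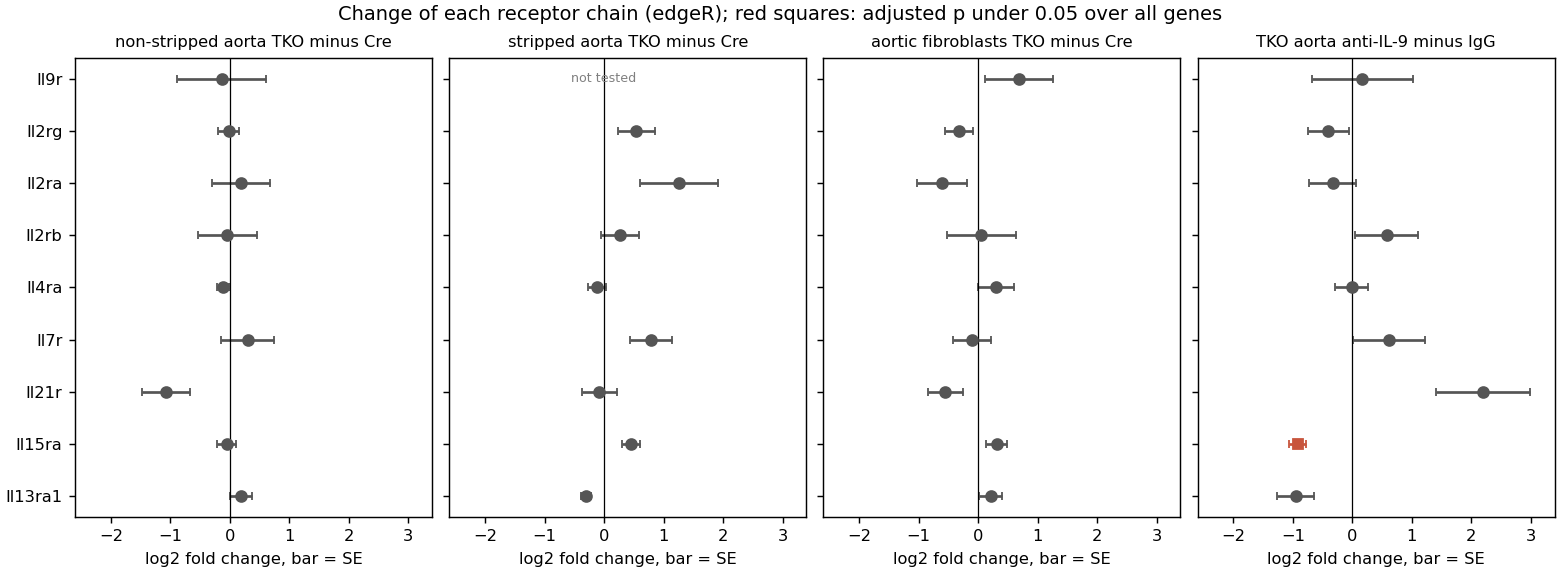
Log2 fold change of each receptor chain with its standard error in the 4 bulk comparisons. Il15ra with the IL-9 antibody (-0.92) is the only red square, a gene past the threshold, and Il9r was not tested in stripped aorta.

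The genotype effect was compared between stripped and non-stripped aorta for the same 9 genes. None was called, where 0.00571% of 17499 genes were, and 1 had an unadjusted p under 0.05, against 18.1% of all genes. That gene was Il13ra1, whose genotype effect differed by -0.49 ± 0.18 on the log2 scale (edgeR adjusted p = 0.182). Il21r (1.00 ± 0.51) and Il2ra (1.06 ± 0.90) had the largest positive differences, with edgeR adjusted p = 0.324 and 0.569.

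In TKO aorta given the IL-9 antibody, Il15ra was lower than with control IgG. It had 64.7, 57.3 and 76.8 CPM with IgG and 34.8 and 35.4 CPM with the antibody, a log2 change of -0.92 ± 0.15 (edgeR adjusted p = 0.00395, DESeq2 adjusted p = 5.07e-06). It was the only one of 9 tested chains that edgeR called, in a comparison where 32.1% of 16461 genes were called and 11.0% were called lower. With 1 of 9 lower, the chains stood near this background. DESeq2 called 3 of the 9, against 33.6% of all genes. Il13ra1 fell short of the threshold, with 9.06, 14.3 and 7.77 CPM under IgG and 6.12 and 4.59 CPM with the antibody, a change of -0.95 ± 0.31 (edgeR adjusted p = 0.0528, DESeq2 adjusted p = 0.0138). Without IgG replicate 3 it was called (-1.15, edgeR adjusted p = 0.0458). These are the 2 genes of 9 (22.2%) whose groups did not overlap, against 59.9% of all genes.

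The same libraries differed widely in cell type markers. The adipocyte markers summed to 8567 to 11092 CPM with IgG and 4552 and 6336 CPM with the antibody, and 4 of the 7 passed as lower. The fibroblast markers summed to 4296 to 11804 against 1523 and 2169 CPM (9 of 10 lower), and the macrophage markers to 506 to 879 against 234 and 235 CPM (8 of 9 tested lower). Neuron markers rose from 196 to 436 CPM to 2919 and 3081 CPM, and all 5 passed as higher. Adipocyte-like and fibroblast-like cells carried Il15ra, and macrophage-like and fibroblast-like cells carried Il13ra1, in the single-cell libraries. Il15ra was highest there in dendritic-like cells led by Ccl22 and Fscn1 (105 ± 40.6 CPM). The dendritic markers were split, with 4 of 8 below 0 (median -0.03) and 1 passing as lower. The part of these markers in the 2 chains was not tested.

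**Figure D4:**
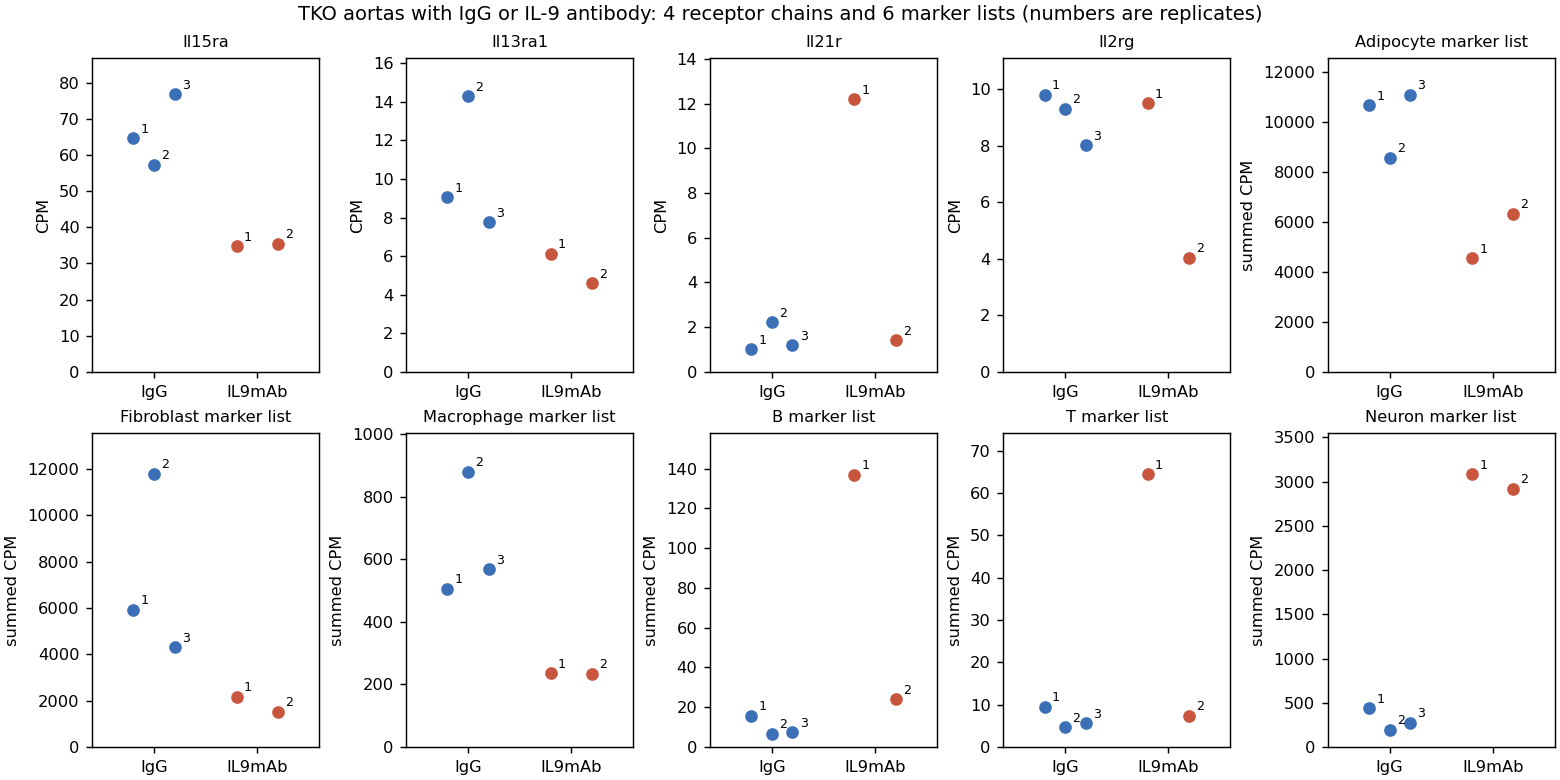
CPM of 4 receptor chains and summed CPM of 6 marker lists in TKO aorta with IgG (3 libraries, blue) or IL-9 antibody (2 libraries, red), numbered by replicate. Il15ra and the adipocyte list are lower in both antibody libraries, whereas Il21r and the B and T lists are high in antibody replicate 1.

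Il21r differed between the antibody libraries. It had 19, 48 and 19 counts with IgG, 305 in antibody replicate 1 and 26 in replicate 2, or 1.01, 2.22, 1.19, 12.2 and 1.42 CPM. The fitted change of 2.20 ± 0.79 (edgeR adjusted p = 0.0741, DESeq2 adjusted p = 0.0157) became -0.08 (edgeR adjusted p = 0.935) without replicate 1, the library with 137 CPM of B cell markers, and 3.02 (edgeR adjusted p = 0.00544) without replicate 2. Il9r (26 counts against 1), Il2rb (72 against 16), Il7r (106 against 17) and Il2rg (238 against 74) were also higher in replicate 1 than in replicate 2. Without replicate 1, Il2rg was called lower at -1.18 (edgeR adjusted p = 0.0237), from 8.02 to 9.81 CPM with IgG and 4.04 CPM in the remaining library, whose spread is then taken from the IgG libraries. Il4ra (43.4 ± 16.8 and 43.2 ± 0.309 CPM) and Il2ra (1.45 ± 0.454 and 1.14 ± 0.143 CPM) were similar in mean and overlapped.

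Between genotypes, the single-cell sums of 18 classes gave 84 tests of a receptor chain, and none was called by edgeR, where 0.107% of 113615 gene tests were, while 8 had an unadjusted p under 0.05 (against 3.75% of all gene tests). The libraries of the genotypes did not overlap in 21 of the 84 tests (against 28.7% of all), 12 higher and 9 lower in TKO, against 14.6% higher and 14.0% lower of all. Il9r passed the filter in B-like cells only and had 15.2 and 13.1 CPM (scaled by TMM) in Cre and 31.4 and 11.5 CPM in TKO, from 44, 16, 48 and 7 UMIs. The log2 change was 0.72 ± 0.43 (edgeR adjusted p = 1.00), and the high value rested on TKO replicate 1. Il2rg in B-like cells was even across libraries, at 203, 230.1, 194 and 237 CPM. In T-like cells it was at 282 and 299 CPM in Cre and 225 and 236 CPM in TKO, a change of -0.34 ± 0.27 (edgeR adjusted p = 1.00).

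The 8 with an unadjusted p under 0.05 were higher in TKO, where 2.59% of all tests were higher and 1.16% lower at that p. They were Il2ra in regulatory T-like, B-like and endothelial-like cells, Il7r in macrophage-like, mesothelial-like and Schwann-like cells and in the Mmp12 Chil3 Cx3cr1 cluster, and Il21r in lymphatic endothelial-like cells. Il2ra in regulatory T-like cells had 53.4 and 86.0 CPM in Cre and 201 and 124 CPM in TKO, from 10, 20, 33 and 11 UMIs, with a change of 1.24 ± 0.43 (edgeR adjusted p = 0.821). Il7r in macrophage-like cells had 3.81 and 7.62 CPM in Cre and 17.7 and 16.2 CPM in TKO, a change of 1.95 ± 0.49 (edgeR adjusted p = 0.222). Cd3e in those cells was at 2.18 and 3.53 CPM in Cre and 15.1 and 9.37 CPM in TKO, moving with Il7r. Il2ra in B-like cells (1.68 ± 0.55, edgeR adjusted p = 0.415) rested on 8, 4, 16 and 5 UMIs. Il7r in Schwann-like cells had 25.1 and 112 CPM in Cre and 169 and 181 CPM in TKO, and Cd3e there stood at 13.8, 119, 102 and 114 CPM. Fibroblast-like cells held Il13ra1 at 44.4 and 46.6 CPM in Cre and 38.0 and 46.5 CPM in TKO, and Il15ra at 19.7, 32.0, 16.0 and 25.9 CPM, with no separation of the genotypes. That class joins 4 clusters, of which the one led by Fmod, Thbs4 and Comp held 656 of 3809 and 378 of 1760 cells in Cre but 2358 of 4445 and 1055 of 2223 in TKO.

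**Figure D5:**
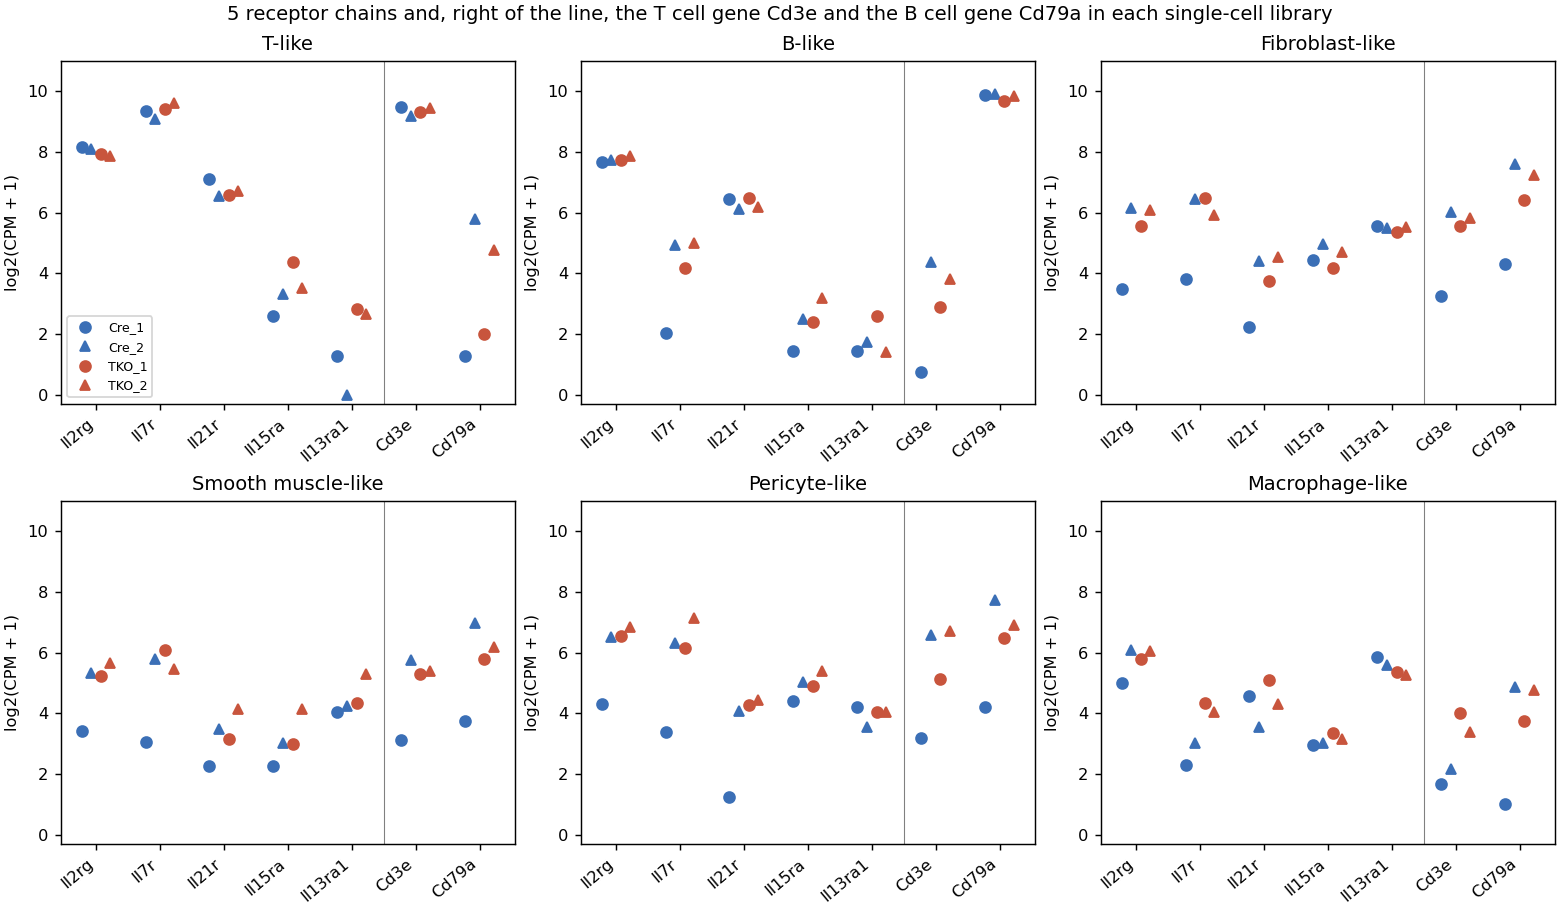
Levels of 5 receptor chains and of Cd3e and Cd79a, as log2(CPM + 1), in 6 cell classes of each library (circles replicate 1, triangles replicate 2; blue Cre, red TKO). In fibroblast-like, smooth muscle-like and pericyte-like cells Cre replicate 1 is lowest for Il2rg, Il7r, Cd3e and Cd79a, while Il13ra1 in fibroblast-like cells is even across libraries.

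The absence of calls depended on Cre replicate 2, and leaving it out left Cre replicate 1 alone in its group. Over all genes, too, more were called with any 1 library left out. Without Cre replicate 2, Il2rg was higher in TKO in fibroblast-like (2.49), pericyte-like (2.44) and smooth muscle-like cells (2.02, log2 scale). Il7r was likewise higher in fibroblast-like (2.55) and pericyte-like cells (3.36). In fibroblast-like, pericyte-like and smooth muscle-like cells Cre replicate 2 stood with the TKO libraries. Il7r was also higher without Cre replicate 2 in macrophage-like (2.16), mesothelial-like (3.13) and Schwann-like cells (2.77). There Cre replicate 2 stood below both TKO libraries, at 7.62 against 17.7 and 16.2, 31.9 against 45.4 and 72.4, and 112 against 169 and 181 CPM. Cd79a in smooth muscle-like cells was at 12.4 and 124 CPM in Cre and 54.4 and 71.5 CPM in TKO, and in pericyte-like cells at 17.5, 211, 88.7 and 119.5 CPM. Without Cre replicate 1 no chain was called.

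The other genes of the pathway were not called in the 3 bulk genotype comparisons, with 0 of 23, 25 and 24 tested, or in the single-cell sums, with 0 of 249 tests. The unadjusted edgeR p was under 0.05 for 3, 5, 3 and 15 of them, against 17.9%, 13.8%, 12.1% and 3.75% of all gene tests. DESeq2 called 2, 1 and 1 in bulk, against the 4.77%, 3.19% and 2.73% of all genes. Jak1, the kinase bound to the cytokine-specific chains, was at 78.2 ± 1.45 CPM in non-stripped Cre and 103 ± 6.20 CPM in TKO aorta, with a change of 0.39 ± 0.08 (edgeR adjusted p = 0.0817, DESeq2 adjusted p = 0.0159). Jak2 was the other DESeq2 call there, at 23.3 ± 1.07 and 31.2 ± 1.82 CPM (0.42 ± 0.09, edgeR adjusted p = 0.0821, DESeq2 adjusted p = 0.0399). In stripped aorta it was Socs1, an inhibitor of JAK signalling, at 6.95 ± 1.81 and 3.47 ± 0.617 CPM (edgeR adjusted p = 0.246, DESeq2 adjusted p = 0.0451), and in fibroblasts Spi1, which encodes PU.1, at 18.6 to 39.1 CPM in Cre and 10.6 to 14.5 CPM in TKO (edgeR adjusted p = 0.245, DESeq2 adjusted p = 0.00216). All 9 tested macrophage markers were below 0 in that fibroblast comparison (median -1.11), and their part in the Spi1 values was not tested. In non-stripped aorta Cish, a STAT5 target, was at 27.9 ± 22.6 and 17.8 ± 13.9 CPM. In the same libraries Jak3 (77.6 and 68.8 CPM), Stat5a (67.3 and 59.1), Stat5b (58.0 and 55.4), Stat6 (65.1 and 70.1) and Socs2 (8.30 and 8.25 CPM) differed by less than 0.20 on the log2 scale.

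With the IL-9 antibody, 10 of 24 tested pathway genes were called, 4 higher and 6 lower, against 21.0% higher and 11.0% lower of all genes. The median log2 change was -0.32 over the pathway genes and -0.01 over all genes. Of the kinases and STATs, Jak3, which binds the gamma chain, fell from 94.9 ± 16.0 to 45.3 ± 8.83 CPM (-1.07 ± 0.19, edgeR adjusted p = 0.00609), and its exons overlap Insl3. Stat5a (38.5 to 42.8 CPM with IgG, 24.6 and 25.4 with the antibody, edgeR adjusted p = 0.00462), Stat5b (means of 46.4 and 34.4 CPM, 0.0231) and Tyk2 (31.3 and 21.4 CPM, 0.0424) also fell. Jak1 (88.4 and 78.6 CPM) and Stat6 (78.8 and 62.6 CPM) did not pass, with edgeR adjusted p = 0.375 and 0.0816.

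Of the targets, Cish fell from 6.97 ± 1.94 to 3.55 ± 0.545 CPM (edgeR adjusted p = 0.0415) and Pim1, a survival kinase induced by STAT5, from 109 ± 13.9 to 75.9 ± 4.67 CPM (0.0324). Socs2, another STAT5 target, rose from 15.8 ± 0.546 to 21.3 ± 2.01 CPM (edgeR adjusted p = 0.0376), as did the survival gene Bcl2, from 13.4 ± 2.61 to 54.5 ± 4.34 CPM (0.000253). Gata3, a factor of T helper 2 cells, ILC2 and sympathetic neurons, rose from 2.14 ± 0.781 to 30.4 ± 5.84 CPM (edgeR adjusted p = 0.000181). Il4 rose from 1.09 ± 0.150 to 7.39 ± 0.804 CPM (edgeR adjusted p = 0.000351). The ILC2 markers, of which 5 of 8 were tested, summed to 67.1 to 71.8 CPM with IgG and 53.1 and 64.4 CPM with the antibody. The T cell markers were high in antibody replicate 1 only, and the neuron markers rose in both antibody libraries. The part of these lists in the Gata3 and Il4 values was not tested.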

How the data were processed

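The authors deposited raw counts for the bulk libraries, 1 row per gene symbol. The submitters' processing notes name the build GRCm38, the aligner STAR 2.5.2b, the trimmer Trimmomatic 0.36 and featureCounts with Subread 1.5.2, and give no strand setting. UMI counts of the single-cell libraries come from Cell Ranger, per the file headers. A blank row, with no more than 0.00250% of any library, was dropped, and 1 column of sample values that no label maps was not used.

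Low genes were removed with filterByExpr (minimum count 10). TMM scaling and edgeR's quasi-likelihood test followed (edgeR 4.0.16, R 4.3.3), with Benjamini-Hochberg adjustment over all genes of a table and a threshold of 0.05. DESeq2 1.42.0 was an alternative. Cells with at least 500 genes, 1000 UMIs and at most 20% mitochondrial UMIs were clustered (leidenalg 0.10.2) without the 10 genes and the pathway list, and named from marker lists. Raw UMIs were summed per library and class, and classes with at least 30 cells in every library were tested. The tests were checked on simulated data with known changes. Limits for a count of 0 use 3 counts, and intervals and limits cover counting error only.

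All 10 genes are reported in every comparison. Of the pathway list, genes past the threshold and Jak1, Jak3, Stat5a, Stat5b, Stat6, Cish and Socs2 are named, as are the 3 genes nearest in pattern to each chain, apart from a few genes not reported here. Jak2, Socs1 and Spi1 were named after their values were seen. The genes, lists and tests were chosen with earlier results of these data known. Titles of the stripped samples read nonstripped and their other fields stripped, and the latter was followed. Promoters (9 of the 10 genes matched) are from RefSeq.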

Additional observations from a re-analysis of the deposited data

How the results depend on the processing

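No receptor chain was called between genotypes in any bulk table under DESeq2, DESeq2 size factors, no filter, 1 fit over all tables or any left-out replicate, nor in the contrast of the 2 aortic tissues under the settings run there. With the IL-9 antibody 1 chain was called, against 3 with DESeq2, 2 with DESeq2 size factors, 3 without a filter and 3 in 1 fit over all tables. Of all genes edgeR called 32.1% and DESeq2 33.6%, so 3 of 9 chains with DESeq2 lies near that share. Il15ra was called in all of these, and its change was -1.03 to -0.82 with a replicate left out.

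Counts of called genes moved more. In non-stripped aorta 18 became 802 (DESeq2), 766 (no filter) and 696 (1 fit), and 0 to 486 with a replicate left out. In stripped aorta 4 became 538, 65 and 381, and 0 to 30. In fibroblasts 10 became 417, 679 and 66, and 3 to 10. With the antibody 5280 ranged from 3514 to 4793 with a replicate left out. In the contrast of tissues 1 became 162 without a filter and 0 to 242 with a replicate left out. The cause was not tested.

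In the single-cell sums 0 calls of a chain became 1 without a filter and 0 to 15 with a library left out. Called genes numbered 121, against 1917 without a filter, 280 and 263 at mitochondrial shares of at most 10% and 15%, 20 without cells holding 2 or more marker genes of another lineage (3 classes left), 245 without cells holding a T or B marker UMI of another lineage, and 176 to 3622 with a library left out. The 15% limit and the T or B marker setting were chosen after seeing the data. With the replicate number as a block, 1 chain (Il7r in macrophage-like cells, 1.93, adjusted p = 0.0368) and 850 genes were called. The libraries share only a number, and with 2 pairs the correlations of same-numbered deviations were 0.08 to 0.46 over the classes.

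Of the 9 receptor chains, 6 kept their highest class at either mitochondrial limit and without T or B marker UMIs, 4 without cells holding 2 or more markers of another lineage, and 6 to 8 with a library left out.

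Changes that were not called turned sign when a replicate was left out. The ranges in non-stripped aorta were -0.59 to 1.08 (Il9r), -0.15 to 0.12 (Il2rg), -0.13 to 0.85 (Il2ra), -0.47 to 0.35 (Il2rb), -0.08 to 0.56 (Il7r) and -0.26 to 0.07 (Il15ra). In stripped aorta they were -0.42 to 0.12 (Il4ra) and -0.45 to 0.22 (Il21r), and in fibroblasts -0.40 to 0.79 (Il2rb), -0.02 to 0.60 (Il4ra) and -0.40 to 0.07 (Il7r). With the antibody they were -1.18 to 0.06 (Il2rg), -0.56 to 1.16 (Il2rb), -0.24 to 0.33 (Il4ra), -0.89 to 1.30 (Il7r), -0.08 to 3.02 (Il21r) and -3.10 to 1.00 (Il9r). In the contrast of tissues they were -0.27 to 1.5 (Il9r), -0.03 to 0.75 (Il2rb) and -0.27 to 0.22 (Il4ra, which was -0.01, 0.03 without a filter and 0.01 with DESeq2 size factors). In single-cell classes they were -0.60 to 2.75 (Il7r, B-like; -0.08 without T or B marker UMIs), -0.18 to 1.76 (Il7r, endothelial-like), -0.09 to 2.27 (Il21r, endothelial-like), -0.04 to 2.84 (Il7r, smooth muscle-like), and in fibroblast-like cells -0.43 to 2.49 (Il2rg), -0.43 to 1.61 (Il2rb), -0.34 to 2.55 (Il7r) and -0.36 to 2.20 (Il21r). Where leaving a library out left 1 in a group, it was assumed to vary like the other group.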
